A study of Mus musculus with 6 samples.

Results

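Interferon-stimulated genes are the genes that cells switch on when interferons bind their receptors. The 38 genes described here were chosen by symbol from a list of well-known members of this response, and all 38 were found among the 38926 gene symbols of each count table. All 38 had enough reads to be tested, with 59 to 3582 reads per gene over the vehicle libraries. They were measured by RNA sequencing in lumbar dorsal root ganglia, the clusters of sensory neurons, glia, vessel cells and resident immune cells beside the spinal cord. The animals were wild type female C57BL/6 mice, 8 to 10 weeks old. One group had received vehicle of unstated composition and the other a cumulative 40 µg of vincristine by intraplantar injection. Vincristine is a chemotherapy drug that binds tubulin and is known to cause neuropathy. The time between treatment and tissue collection is not stated either. Ganglia of lumbar levels 3, 4 and 5 on the side of the treated paw were used. Each of the 3 vehicle and 3 vincristine libraries was made from the pooled tissue of 4 mice, so the spread between libraries is a spread between pools and not between single animals.

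In the classical pathway, cells sense viral or misplaced nucleic acids, make type I interferon, and the receptor's kinases then activate a complex that includes STAT2 and IRF9 and binds interferon-stimulated response elements (ISREs) in promoters. Type II interferon acts on other elements, the gamma-activated sites (GAS). The induced proteins bind or degrade foreign RNA, tag proteins with ISG15, or feed back on the pathway. In sensory ganglia this response is best known from infection with neurotropic viruses, and neurons and non-neuronal cells alike can mount it.

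Libraries held between 12374331 and 26346304 gene-assigned reads, fewest in vincristine replicate 1. That library also stood apart on the first principal component, which held 54.9% of the variance, and 24.8% of its tallied alignments fell outside annotated genes, against 14.8% to 17.0% in the others. All 12 sensory neuron markers and all 11 satellite glia and Schwann cell markers were detected well enough to be tested. So were all 15 neutrophil and all 8 endothelial markers, so detection alone is not a check of tissue identity. The neuron markers summed to 4323 CPM (read counts per 1e6 reads, on TMM-scaled library sizes) in vincristine replicate 1 and to between 9387 and 12380 CPM elsewhere. Results below are therefore given per library and, where it matters, without that one.

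The promoter sequences of the members were searched for short core motifs of ISRE and GAS elements. RefSeq promoter windows, which run from 250 bases before a transcription start to 50 bases after it, were found for 28 of the 38 members; none was used for Dhx58, Zbp1, Oas1b, Oas2, Usp18, Mx1, Mx2, Ifi27l2a, Rtp4 and Parp14. The ISRE core, spelled GAAA, any 2 bases, GAAA and searched on both strands, occurred in 16 of these 28 (57.1%), counting a gene once if any of its starts had a match. Among all 27025 genes in the same table the share was 3.99%. The GAS core TTCNNNGAA, which reads the same on both strands, occurred in 7 of 28 (25.0%), against 9.55% of all genes. Matches of the motifs overlapped in Bst2 and, for repeated ISRE cores, in Isg15, Oas1a, Oas1g, Gbp3 and Bst2. The windows of 4 members are printed below, 5′ to 3′ on the gene's own strand, with the bases of ISRE core matches in capitals. Rsad2, Oas3 and Isg15 are shown because their counts differed most between the groups, and Ifit1, chosen after its values were seen, because it has the motif too while its groups overlap. Positions are on GRCm38.p6: Rsad2 chr12:26456403-26456702 (minus strand), Oas3 chr5:120777610-120777909 (minus strand), Isg15 chr4:156200769-156201068 (minus strand) and Ifit1 chr19:34640639-34640938 (plus strand).
Rsad2: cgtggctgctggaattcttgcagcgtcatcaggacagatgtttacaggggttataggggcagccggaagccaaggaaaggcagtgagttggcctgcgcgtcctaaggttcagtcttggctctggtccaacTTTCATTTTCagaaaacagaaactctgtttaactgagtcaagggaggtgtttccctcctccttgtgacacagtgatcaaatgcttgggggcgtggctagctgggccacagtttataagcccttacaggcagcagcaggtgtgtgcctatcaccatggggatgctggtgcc
Oas3: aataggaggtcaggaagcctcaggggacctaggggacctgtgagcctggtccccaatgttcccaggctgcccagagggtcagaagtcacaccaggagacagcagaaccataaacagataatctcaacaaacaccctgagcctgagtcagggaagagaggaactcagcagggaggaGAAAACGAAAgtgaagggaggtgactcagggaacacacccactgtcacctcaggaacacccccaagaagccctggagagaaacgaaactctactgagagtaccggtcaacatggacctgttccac
Isg15: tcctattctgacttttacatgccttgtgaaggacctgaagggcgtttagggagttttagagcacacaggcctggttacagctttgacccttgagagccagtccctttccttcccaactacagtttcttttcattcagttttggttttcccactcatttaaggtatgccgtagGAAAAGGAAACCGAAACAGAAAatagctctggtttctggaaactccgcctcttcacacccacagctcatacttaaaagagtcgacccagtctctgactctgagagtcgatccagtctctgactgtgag
Ifit1: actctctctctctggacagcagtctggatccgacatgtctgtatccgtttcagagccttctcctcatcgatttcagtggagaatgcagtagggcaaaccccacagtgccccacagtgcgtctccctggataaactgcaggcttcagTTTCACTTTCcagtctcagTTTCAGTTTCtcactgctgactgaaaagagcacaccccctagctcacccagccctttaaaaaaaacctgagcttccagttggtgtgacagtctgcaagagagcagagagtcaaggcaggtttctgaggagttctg

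The single match of Rsad2 lay between bases -120 and -111 from the start and that of Oas3 between -75 and -66. Isg15 had 3 overlapping matches between -78 and -57. Ifit1 had one between -104 and -95 and another between -85 and -76. A match is a run of letters and not a shown binding site. Only 21 of the 33 member start sites had their first transcribed bases within a GENCODE transcript of that gene, so the distances hold for the RefSeq starts. As a description, the 16 members with a core showed a median log2 value of 0.41 and the 12 without one a median of 0.35.

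**Figure D1:**
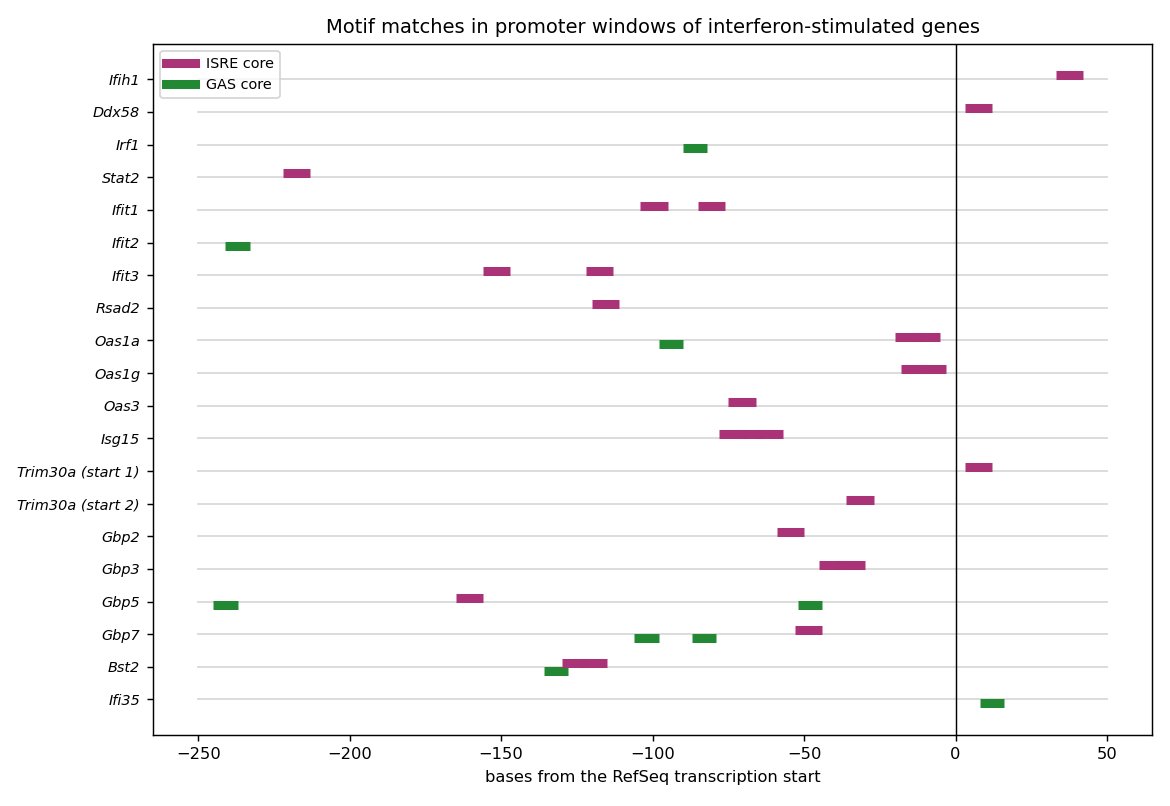
Positions of ISRE core (purple) and GAS core (green) matches in the promoter windows of the members that have at least one; the horizontal axis is the distance in bases from the RefSeq transcription start, drawn as a vertical line, and Trim30a has 2 start sites. Most ISRE core matches lie in the nearer part of the window before the start, that of Stat2 lies farthest upstream, and those of Ifih1, Ddx58 and the first start of Trim30a lie just after it.

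As a group the interferon-stimulated genes were higher on average in the vincristine libraries, but no single member passed the test over all genes by edgeR's quasi-likelihood test. Of the 38 members 37 had a positive log2 fold change (vincristine against vehicle), where 49.3% of all 16706 tested genes did. The median over members was 0.43, and over all tested genes -0.00334. By edgeR 0 of 38 were called at an adjusted p under 0.05; over all genes 0.293% were called higher and 0.359% in either direction. Before adjustment 14 of 38 members passed p under 0.05 as higher and 0 as lower, against 8.1% and 3.27% of all genes. DESeq2 called 4 of 38 higher, Rsad2, Oas3, Isg15 and Oas2, against 2.92% of all genes, and 0 lower, against 0.491%. Members respond to shared signals and are not independent of each other, so these counts are not repeated evidence. More of an RNA per cell and more cells that carry it cannot be told apart in whole ganglia.

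The size of the group difference rested on single libraries. The median over members was 0.78 without vehicle replicate 2, 0.24 without vehicle replicate 3 and 0.24 without vincristine replicate 1. The number at an unadjusted p under 0.05, 14 with all libraries, was 6, 18 and 5 without vehicle replicates 1, 2 and 3. It was 9, 15 and 11 without vincristine replicates 1, 2 and 3. Of all tested genes, in either direction, 1462 of 16973, 1063 of 17003 and 1409 of 16948 passed without vehicle replicates 1, 2 and 3. Without vincristine replicates 1, 2 and 3 these were 2200 of 16887, 1860 of 16949 and 2357 of 16960.

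Expression of the members differed between pools of the same treatment as well. Vehicle replicate 2 had the highest CPM among the vehicle libraries for 34 of the 38 members, and vehicle replicate 3 the lowest for 30; over all tested genes these libraries took those places for 29.9% and 31.6%. The ratio of vehicle replicate 2 to vehicle replicate 3 ranged from 0.972 in Trim30a to 3.65 in Ifit1, with a median of 1.69. Among the vincristine libraries replicate 1 was highest for 29 members and replicate 2 lowest for 32 (42.7% and 20.3% of all genes). Vincristine replicate 2 was below vehicle replicate 2 for 28 of 38 members, where 45.1% of all genes were. The median ratio of the highest to the lowest vehicle library was 1.73 for the members and 1.22 for all tested genes.

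**Figure D2:**
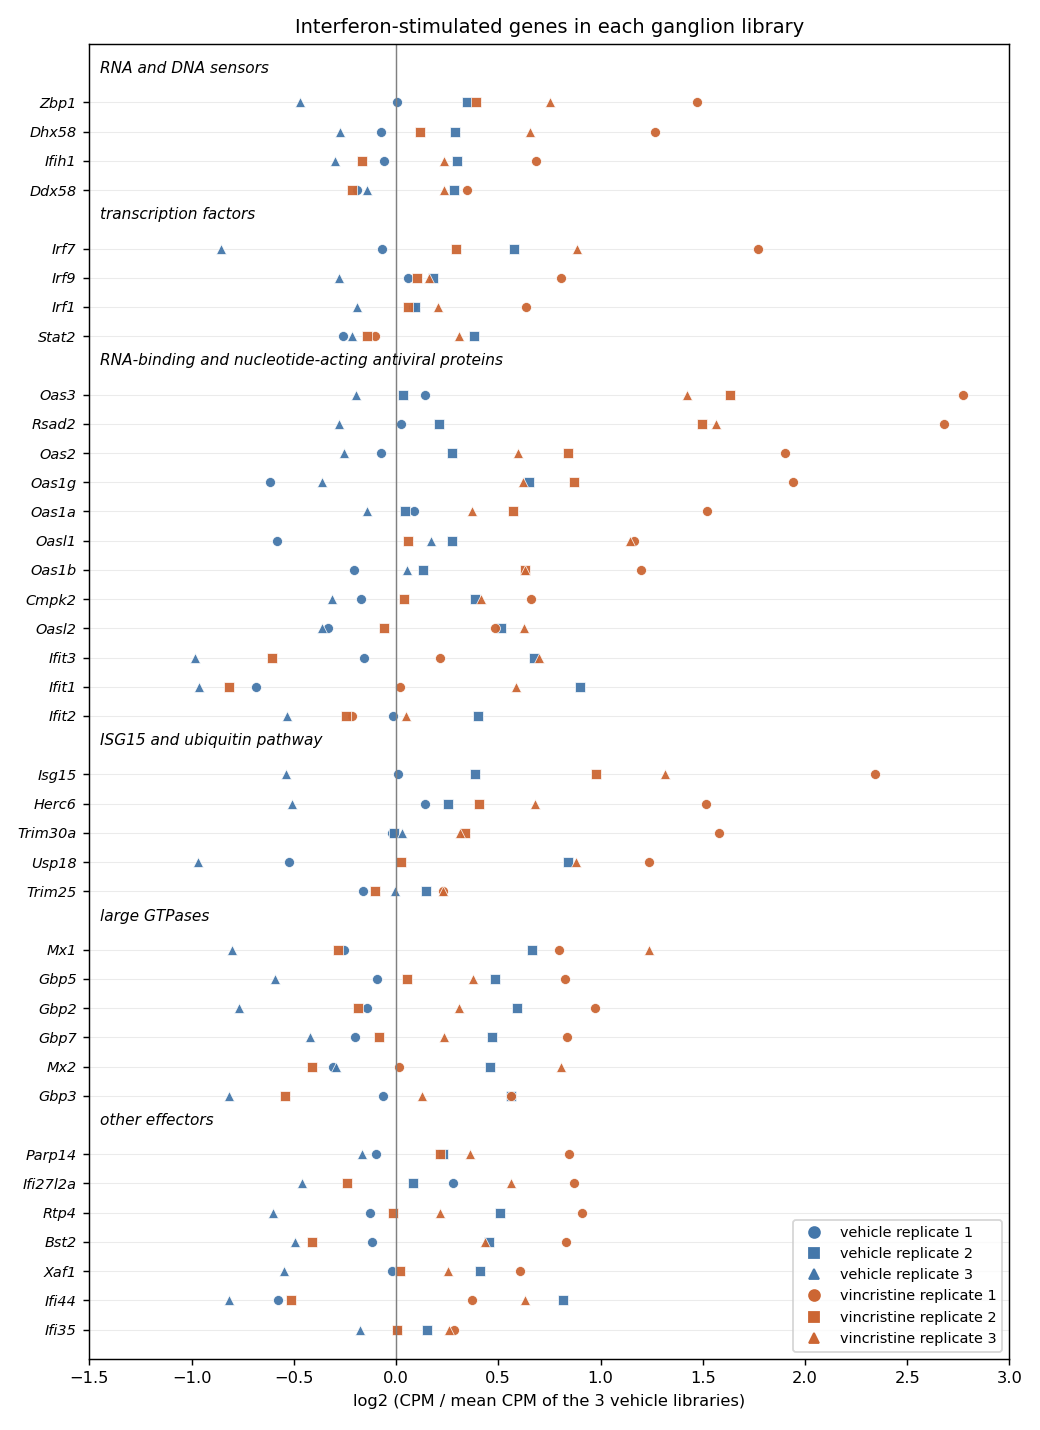
Each row is a member, grouped by role; the horizontal axis is log2 of its CPM in a library over the mean CPM of the 3 vehicle libraries (blue, vehicle; orange, vincristine; circle, square and triangle for replicates 1, 2 and 3). Oas3, Rsad2 and Isg15 lie farthest to the right, with all 3 vincristine libraries above all 3 vehicle libraries, while in Ifit1, Ifit3 and Ifi44 vehicle replicate 2 lies among or above the vincristine libraries.

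Rsad2 encodes viperin, a radical SAM enzyme that makes a chain-terminating nucleotide and blocks the replication of many viruses. Its level was 60.1, 68.5 and 48.8 CPM in vehicle replicates 1, 2 and 3, and 379, 167 and 175 CPM in vincristine replicates 1, 2 and 3. All vincristine libraries were thus above all vehicle libraries, and replicate 1 was more than the other vincristine pair together. The fold change was 4.06 (log2 2.02 ± 0.34 SE; edgeR adjusted p = 0.0897, DESeq2 adjusted p = 1.60e-06). Without vincristine replicate 1 the log2 fold change was 1.53 ± 0.14 and passed by edgeR (adjusted p = 0.00372). That fit called 346 of all genes, against 60 with all libraries. Leaving out any other library left no member called by edgeR, Rsad2 included. The gene spans chromosome 12 from 26442746 to 26456452 on GRCm38 (GENCODE M21), is protein-coding, and shared no 75-base stretch with transcripts of another gene.

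Cmpk2, a mitochondrial nucleotide kinase gene that supplies viperin's substrate pathway, is the next-door neighbour of Rsad2, starting at base 26469204 of chromosome 12 and transcribed in the opposite direction. It was at 36.0, 52.8 and 32.5 CPM in vehicle pools and 64.0, 41.6 and 54.0 CPM in vincristine, and the groups overlapped. Its log2 fold change was 0.39 ± 0.23 (edgeR adjusted p = 0.569). The ratio of Rsad2 to Cmpk2 CPM within each library was 1.67, 1.30 and 1.5 in vehicle and 5.92, 4.01 and 3.24 in vincristine, with no overlap. This pair was chosen after its values were seen, so the ratio is a description with no test.

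The oligoadenylate synthetases sense double-stranded RNA and make the messenger that activates RNase L. Oas3, which prefers long RNA, was at 10.8, 10.0 and 8.55 CPM in vehicle pools and 66.9, 30.4 and 26.2 CPM in vincristine. The lowest vincristine library was well above the highest vehicle library. Its fold change was 4.18 (log2 2.07 ± 0.36, edgeR adjusted p = 0.0975, DESeq2 adjusted p = 5.61e-06). Without vincristine replicate 1 the log2 value was 1.53 ± 0.13 (edgeR adjusted p = 0.00316). Like Rsad2, it was not called by edgeR when any other library was left out. Oas3 lies on chromosome 5 from 120753098 to 120777661, next to Oas2 (120730333 to 120749853).

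Oas2 was at 5.6, 7.14 and 4.95 CPM in vehicle pools and 22.1, 10.5 and 8.90 CPM in vincristine. The groups did not overlap, and most of the difference lay in replicate 1. Its log2 fold change was 1.22 ± 0.36 (edgeR adjusted p = 0.273, DESeq2 adjusted p = 0.0456), and without vincristine replicate 1 it was 0.72 ± 0.19 (edgeR adjusted p = 0.133) and was not called by DESeq2.

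The smaller synthetases of the same chromosome 5 cluster were low. Oas1a was at 3.92, 3.80 and 3.35 CPM in vehicle pools and 10.6, 5.48 and 4.78 CPM in vincristine. Oas1b, which GENCODE lists as a polymorphic pseudogene and whose C57BL/6 allele is known to be truncated, was at 2.63, 3.33 and 3.15 CPM in vehicle pools and 6.97, 4.70 and 4.70 CPM in vincristine. Oas1g, the lowest member per length in vehicle, was at 0.672, 1.62 and 0.800 CPM in vehicle pools and 3.95, 1.88 and 1.58 CPM in vincristine. The groups were apart for the first pair and overlapped for Oas1g. Their log2 fold changes were 0.89 ± 0.32, 0.83 ± 0.23 and 1.21 ± 0.48, with edgeR adjusted p = 0.365, 0.235 and 0.405. Without vincristine replicate 1 the values of Oas1a and Oas1g were 0.47 and 0.73. Oas1a shares 47.6% of its 75-base stretches with other transcripts and Oas1g 36.9%, each with the other, so their separate counts are uncertain.

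The 2'-5'-oligoadenylate synthetase-like proteins do not all make the messenger; Oasl1 is known to restrain translation of Irf7. Oasl1 was at 2.07, 3.75 and 3.50 CPM in vehicle pools and 6.97, 3.24 and 6.86 CPM in vincristine (log2 0.86 ± 0.36, edgeR adjusted p = 0.428). Oasl2 was more abundant, with means of 44.8 ± 16.6 CPM for vehicle against 58.3 ± 13.7 CPM for vincristine (SD, n = 3 libraries), and had a log2 fold change of 0.38 ± 0.28 (edgeR adjusted p = 0.655). Both genes overlapped between the groups.

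**Figure D3:**
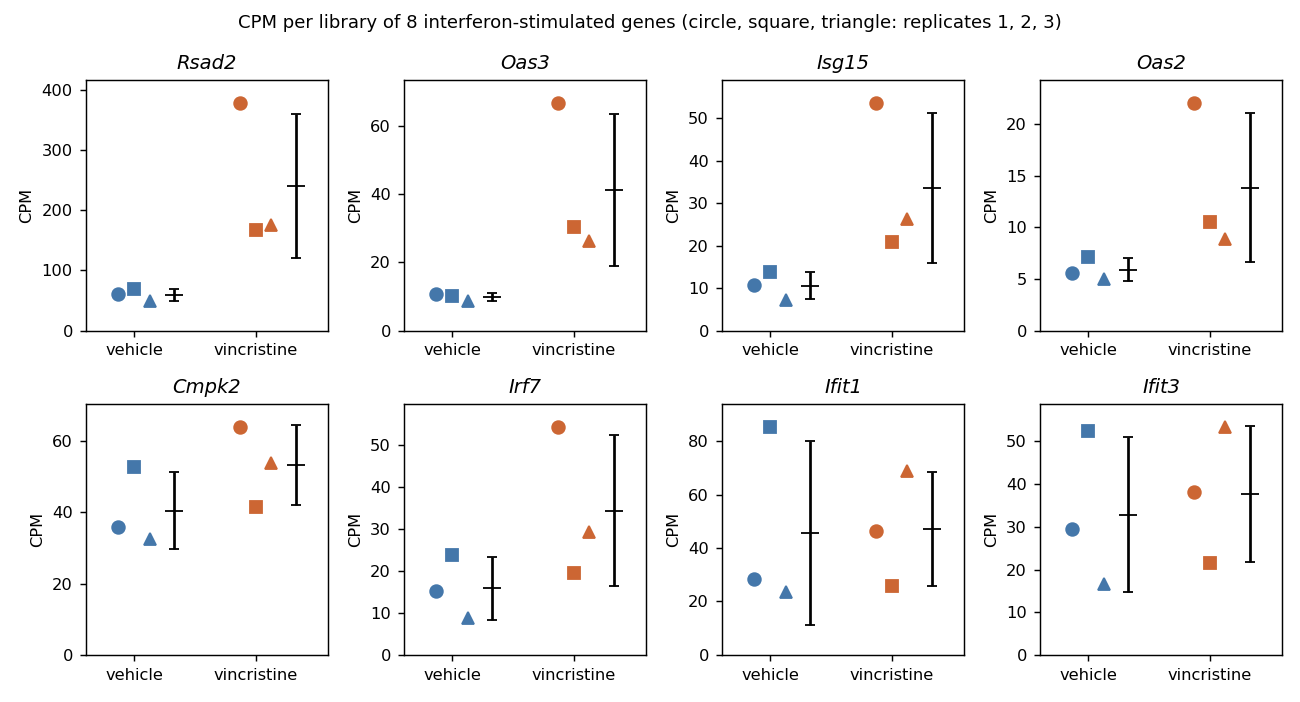
CPM of 8 members in each library on axes that start at 0; circles, squares and triangles are replicates 1, 2 and 3, and the dash with bars beside them is the mean ± SD of 3 libraries. Rsad2, Oas3, Isg15 and Oas2 do not overlap between the groups, whereas Cmpk2, Irf7, Ifit1 and Ifit3 do.

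The Ifit1 protein binds the ends of viral RNA that lack host marks. Ifit1 was at 28.4, 85.3 and 23.4 CPM in vehicle pools and 46.4, 25.9 and 68.7 CPM in vincristine. The highest library was a vehicle pool, and the spread within vehicle was 3.65-fold. Its log2 fold change was 0.04 ± 0.55 (edgeR adjusted p = 0.986), and without vehicle replicate 2 it was 0.88. Ifit3 had the same order of libraries within each group, with 29.5, 52.5 and 16.6 CPM in vehicle pools and 38.2, 21.6 and 53.4 CPM in vincristine. It shares 41.1% of its 75-base stretches, with Ifit3b, so its count is uncertain. Ifit2 was the only member with a negative log2 fold change, -0.13 ± 0.23 (edgeR adjusted p = 0.863); it was at 62.4, 83.2 and 43.6 CPM in vehicle pools and 54.3, 53.1 and 65.2 CPM in vincristine, and without vehicle replicate 2 the value was 0.14. Of the 12 RNA-binding and nucleotide-acting members, 7 were higher at an unadjusted p under 0.05, where 8.1% of all genes were: Rsad2, Oas1a, Oas1b, Oas1g, Oas2, Oas3 and Oasl1.

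ISG15 is a ubiquitin-like protein that is attached to other proteins. Isg15 was at 10.6, 13.8 and 7.30 CPM in vehicle pools and 53.7, 20.8 and 26.4 CPM in vincristine, with no overlap. Its fold change was 3.16 (log2 1.66 ± 0.39; edgeR adjusted p = 0.193, DESeq2 adjusted p = 0.00273). Without vincristine replicate 1 the log2 value was 1.16 ± 0.24 (edgeR adjusted p = 0.0684), and DESeq2 still called the gene. It spans chromosome 4 from 156199424 to 156200818.

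Usp18, the protease that removes ISG15 and damps receptor signalling, overlapped between the groups. It was at 6.67, 17.2 and 4.90 CPM in vehicle pools and 22.6, 9.76 and 17.7 CPM in vincristine. Its log2 fold change was 0.79 ± 0.50 (edgeR adjusted p = 0.599), with 1.54 and 0.47 without vehicle replicates 2 and 3 and 0.52 without vincristine replicate 1, and DESeq2 called it without vehicle replicate 2 and not otherwise. Herc6, the mouse ligase that attaches ISG15, was at 18.3, 19.9 and 11.7 CPM in vehicle pools and 47.5, 22.0 and 26.6 CPM in vincristine, with no overlap (log2 0.94 ± 0.32, edgeR adjusted p = 0.347; 0.55 on the log2 scale without vincristine replicate 1). Trim30a, a ring-finger protein that restrains inflammatory signalling, was nearly level over the vehicle libraries, at 16.4, 16.5 and 16.9 CPM. In vincristine it was at 49.6, 21.0 and 20.6 CPM (log2 0.86 ± 0.34, edgeR adjusted p = 0.404), and without replicate 1 the log2 value was 0.32. Trim25, which modifies the RNA sensor RIG-I, was at 41.5 ± 4.41 and 45.3 ± 5.82 CPM (SD, n = 3 each).

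Among the transcription factors Irf7, the amplifier of type I interferon production, had the largest value. It was at 15.2, 23.8 and 8.80 CPM in vehicle pools and 54.3, 19.5 and 29.4 CPM in vincristine. Vincristine replicate 2 lay below vehicle replicate 2. Its log2 fold change was 1.1 ± 0.46 (edgeR adjusted p = 0.424, DESeq2 adjusted p = 0.211), and it ranged from 0.62 without vincristine replicate 1 to 1.54 without vehicle replicate 2. An exon of Phrf1 overlaps Irf7 on the opposite strand, and whether counting used strand is unknown here.

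Stat2 and Irf9 encode parts of the ISRE-binding complex. Stat2 was at 46.9, 73.2 and 48.4 CPM in vehicle pools and 52.3, 50.9 and 69.4 CPM in vincristine, a log2 fold change of 0.04 ± 0.21 (edgeR adjusted p = 0.965). Irf9 was at 37.5, 40.8 and 29.7 CPM in vehicle pools and 62.9, 38.6 and 40.3 CPM in vincristine (log2 0.39 ± 0.22, edgeR adjusted p = 0.556). Irf1, a factor induced above all by type II interferon, was at 32.9, 33.2 and 27.2 CPM in vehicle pools and 48.3, 32.4 and 35.8 CPM in vincristine (log2 0.32 ± 0.17, edgeR adjusted p = 0.543). The libraries of both groups overlapped in each of these genes. Without vincristine replicate 1 the log2 values of Irf9 and Irf1 were both 0.13. An exon of a gene on the opposite strand overlaps Irf1, and one on the same strand overlaps Irf9.

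Of the 4 nucleic acid sensors, the RNA sensors Ifih1 (MDA5) and Ddx58 (RIG-I) overlapped between the groups. Ifih1 was at 32.0, 41.1 and 27.1 CPM in vehicle pools and 53.7, 29.8 and 39.3 CPM in vincristine (log2 0.29 ± 0.24, edgeR adjusted p = 0.689). Ddx58 was at 40.3, 55.8 and 41.6 CPM in vehicle pools and 58.3, 39.6 and 54.0 CPM in vincristine (log2 0.14 ± 0.19, edgeR adjusted p = 0.812). Their relative Dhx58 (LGP2), which lacks a signalling domain, was at 6.33, 8.13 and 5.5 CPM in vehicle pools and 16, 7.20 and 10.5 CPM in vincristine (log2 0.75 ± 0.31, edgeR adjusted p = 0.418). Zbp1, a sensor of left-handed nucleic acids that can start cell death, was at 4.31, 5.47 and 3.10 CPM in vehicle pools and 11.9, 5.64 and 7.25 CPM in vincristine. Its groups were apart by the small step from vehicle replicate 2 to vincristine replicate 2 (log2 0.93 ± 0.33, edgeR adjusted p = 0.361). Without vincristine replicate 1 the log2 values of Dhx58, Zbp1, Ifih1 and Ddx58 were 0.42, 0.59, 0.05 and 0.03.

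The large GTPases assemble on viral particles or on the membranes of pathogen-holding vacuoles. None of the 6 was at an unadjusted p under 0.05, where 8.1% of all genes were higher and 3.27% lower. All overlapped between the groups, where 11.5% of all genes were apart and higher in vincristine. A family of 6 genes is too small to tell such counts from those shares. The log2 fold changes of the 6 ran from 0.11 in Gbp3 to 0.72 in Mx1. Mx1, whose C57BL/6 allele is known to be defective, was at 3.36, 6.36 and 2.30 CPM in vehicle pools and 6.97, 3.29 and 9.44 CPM in vincristine (log2 0.72 ± 0.48, edgeR adjusted p = 0.618). Gbp2, a guanylate-binding protein, was at 39.9, 66.3 and 25.8 CPM in vehicle pools and 86.3, 38.6 and 54.5 CPM in vincristine (log2 0.44 ± 0.40, edgeR adjusted p = 0.708). Vehicle replicate 2 exceeded vincristine replicate 2 in both. The log2 value of Mx1 ranged from 0.34 without vincristine replicate 3 to 1.24 without vehicle replicate 2, and was 0.43 without vehicle replicate 3. That of Gbp2 was 0.88 and 0.17 without vehicle replicates 2 and 3, and 0.08 and 0.68 without vincristine replicates 1 and 2. Gbp2, Gbp3, Gbp5 and Gbp7 are neighbours on chromosome 3, between 142493978 and 142638008.

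Of the 7 other effectors, Parp14, an ADP-ribosyltransferase, was at 52.2, 65.5 and 49.8 CPM in vehicle pools and 100.5, 64.9 and 71.7 CPM in vincristine. It was the only one of them at an unadjusted p under 0.05 (log2 0.50 ± 0.19, edgeR adjusted p = 0.394), with overlapping groups. Over all genes 8.1% were higher at that unadjusted p. Bst2 (tetherin), which holds budding virus at the cell surface, was at 18.8, 28.0 and 14.5 CPM in vehicle pools and 36.4, 15.3 and 27.7 CPM in vincristine (log2 0.37 ± 0.35, edgeR adjusted p = 0.720). Ifi27l2a, a small mitochondrial-family protein, was at 36.1, 31.5 and 21.6 CPM in vehicle pools and 54.4, 25.2 and 43.9 CPM in vincristine (log2 0.47 ± 0.30, edgeR adjusted p = 0.608). Without vincristine replicate 1 the log2 values of Parp14, Bst2 and Ifi27l2a were 0.29, 0.08 and 0.22, and without vehicle replicate 2 that of Bst2 was 0.69. Ifi44, Ifi35, Xaf1 and Rtp4 had log2 fold changes of 0.24, 0.19, 0.31 and 0.41, and each overlapped.

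Levels were compared between members per kilobase of GENCODE M21 exon, since longer genes gather more reads; which annotation the authors counted on is unknown here. In vehicle Ifi27l2a was highest, at a level of 64.2 CPM per kb, followed by Bst2 (22.6), Ifit3 (18.8), Gbp2 (17.5) and Ifit1 (17.2). Rsad2 ranked 9 of 38 at 13.6 and Isg15 8 at 14.0 CPM per kb. In vincristine Rsad2 was 2 and Isg15 3 in that order, at 55.4 and 44.5 CPM per kb. The lowest in vehicle were Oas1g (0.440) and Ifi44 (0.791).

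All 3 vincristine libraries lay above all 3 vehicle libraries in 9 of the 38 members, where 11.5% of all tested genes did so, and in none did they lie below (9.51% of all genes). The 9 were Zbp1, Rsad2, Oas1a, Oas1b, Oas2, Oas3, Isg15, Herc6 and Trim30a. Members that varied most over the vehicle pools, by 3-fold or more, were Ifit1, Usp18, Ifit3 and Ifi44, and each overlapped between the groups. A wide vehicle range makes overlap likely by itself, so this is a description only. Vincristine replicate 1 was above every vehicle library for 30 members and replicate 3 for 23, where 37.7% and 28.4% of all genes were. Vincristine replicate 2 was above every vehicle library for 10 members and below the vehicle mean for 17, shares near those of all genes (28.5% and 47.9%).

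**Figure D4:**
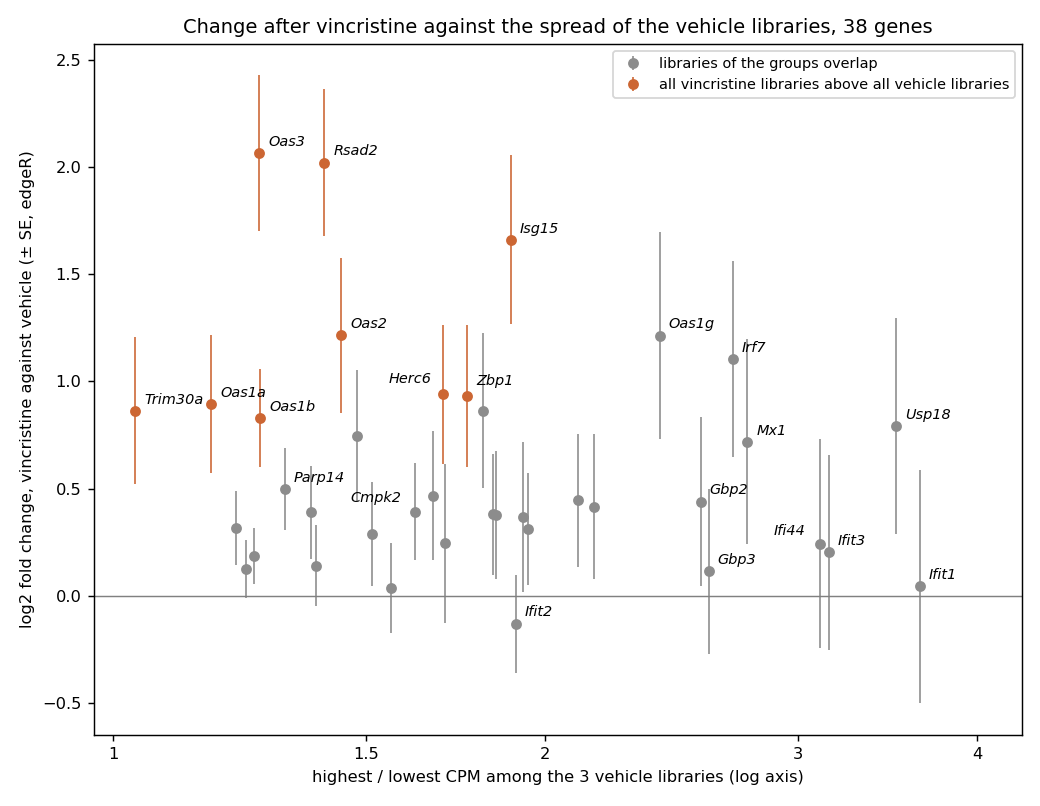
Each point is 1 of the 38 members; the horizontal axis is the ratio of its highest to its lowest vehicle CPM on a log axis and the vertical axis its log2 fold change with the edgeR SE, orange where the libraries of the groups do not overlap. Oas3 and Rsad2 combine a vehicle ratio under 1.5 with log2 fold changes of 2.07 and 2.02, while Ifit1 has a vehicle ratio of 3.65 and a log2 fold change of 0.04.

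Of 112 further genes of the interferon pathway, 88 were tested, and 1 passed by edgeR and 5 by DESeq2, all higher; over all genes 0.293% and 2.92% were called higher. Transcripts of the interferons themselves were close to absent. Of 21 interferon genes none could be tested. Ifnb1 had 1 read, in vincristine replicate 1, and Ifng had 0, 2 and 0 reads in vehicle and 2, 1 and 3 in vincristine. The limit that 3 reads set was 0.116 to 0.232 CPM per library, and every value of Ifnb1 and Ifng but the 3 reads in vincristine replicate 3 lay under it, so no difference between the groups could be seen at this depth.

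Receptors and kinases were well expressed apart from Ifnlr1, which was low, and edgeR called 0 of 11 (2 higher at an unadjusted p under 0.05). Over all genes 0.293% were called higher by edgeR and 8.1% were higher at that unadjusted p. Ifnar1 and Ifnar2, the chains of the type I receptor, were at 97.8 and 23.9 CPM in vehicle pools and at 98.5 and 31.8 CPM in vincristine, with log2 fold changes of 0.01 ± 0.10 and 0.41 ± 0.15 (edgeR adjusted p = 0.979 and 0.368). Ifnlr1, the specific chain of the type III receptor, was at 3.31, 2.19 and 2.10 CPM in vehicle pools and 9.76, 4.59 and 4.78 CPM in vincristine, and passed by DESeq2 only (log2 1.32 ± 0.36; edgeR adjusted p = 0.237, DESeq2 adjusted p = 0.0289).

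Among the 17 sensors and adaptors edgeR called 0, with 3 higher at an unadjusted p under 0.05 (8.1% of all genes). DESeq2 called 1 higher (2.92% of all genes). That gene was Myd88, the adaptor of most Toll-like receptors, at 14.2, 10.8 and 14.4 CPM in vehicle pools and 22.8, 19.2 and 18.7 CPM in vincristine (log2 0.62 ± 0.16; edgeR adjusted p = 0.208, DESeq2 adjusted p = 0.0390). Of the 7 feedback genes, Socs3 was at 12.2, 11.5 and 13 CPM in vehicle pools and 25.1, 22.8 and 25.2 CPM in vincristine. It rose by edgeR (log2 0.99 ± 0.11, adjusted p = 0.0242), but leaving out any 1 vehicle library left 0 of all genes called by edgeR, with 1063 to 1462 at an unadjusted p under 0.05. It inhibits signalling by gp130 receptors and answers to STAT3. The inhibitor more closely tied to interferon receptors, Socs1 (chosen after its values were seen), was at 2.86, 2.34 and 3.0 CPM in vehicle pools and 3.87, 3.34 and 2.85 CPM in vincristine (edgeR adjusted p = 0.658).

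The further interferon-induced genes, 53 of 56 of them tested, showed a median log2 value of 0.38, and edgeR called 0. Without adjustment 13 of them had a higher and 1 a lower level at p under 0.05 by edgeR (all genes, 8.1% and 3.27%). DESeq2 called Isg20 and Slfn1, a share near the 2.92% of all genes. Isg20, an RNA exonuclease gene, was at 14.7, 13.2 and 10.7 CPM in vehicle pools and 64.5, 29.0 and 35.3 CPM in vincristine (log2 1.73 ± 0.31; edgeR adjusted p = 0.0997, DESeq2 adjusted p = 2.53e-05). Slfn1, a schlafen gene of lymphoid and myeloid cells, was at 7.11, 4.32 and 4.80 CPM in vehicle pools and 35.5, 12.7 and 10.9 CPM in vincristine (log2 1.85 ± 0.48; edgeR adjusted p = 0.219).

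Myeloid and red cell markers moved with the group difference, and their part in it was not tested. All 15 neutrophil markers were tested, and their summed level was 862 to 1493 CPM in vehicle pools and 2704 to 8202 CPM in vincristine, highest in replicate 1. The 16 macrophage and monocyte markers summed to 738 to 970 CPM in vehicle pools and 1256 to 2450 CPM in vincristine. The 10 erythroid markers in the tables summed to 2684 to 4433 and 5210 to 13462 CPM. No marker of these lists that is in the tables was at 0. Per library, the neutrophil medians on the log2 scale against the vehicle mean were 0.38, -0.37 and -0.04 in vehicle and 2.86, 1.29 and 1.44 in vincristine. The medians of the interferon-stimulated genes were -0.05, 0.42 and -0.29 in vehicle and 0.89, 0.07 and 0.54 in vincristine. Vehicle replicate 2, highest in the interferon-stimulated genes, was thus the lowest vehicle library in neutrophil markers, and also in macrophage and monocyte markers (-0.14). The macrophage and monocyte medians of vincristine replicates 1, 2 and 3 were 0.999, 0.39 and 0.53. Among the vincristine libraries, replicate 1 was highest and replicate 2 lowest in neutrophil markers, in macrophage and monocyte markers and in the interferon-stimulated genes alike. B cell markers went the other way, with 6 of 8 lower by edgeR, where 11 of all 16706 tested genes were. T and NK cell markers had a median log2 value of 0.48 over 9 tested genes, 8 positive and 1 negative. Per library their medians were 0.45, -0.58 and -0.06 in vehicle and 1.47, -0.37 and 0.12 in vincristine. Markers of plasmacytoid dendritic cells, known for making much interferon, showed a median log2 value of 0.06 across 8 tested genes, 1 of which, Bst2, is a member. These went both ways, with 5 positive and 3 negative, from -2.69 in Spib, which B cells also express and which DESeq2 called lower, to 1.20 in Cox6a2.

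**Figure D5:**
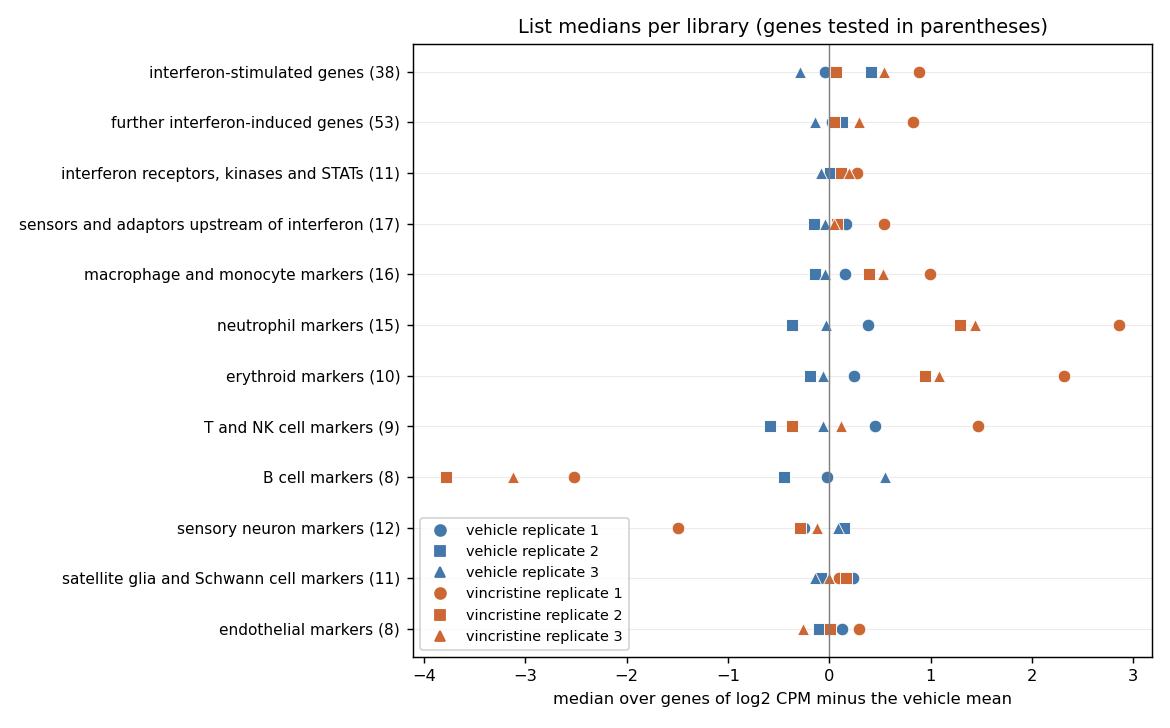
Median over the tested genes of each list of log2 CPM minus the vehicle mean, per library (blue, vehicle; orange, vincristine; circle, square and triangle for replicates 1, 2 and 3). For interferon-stimulated genes vehicle replicate 2 lies at 0.42, between vincristine replicates 2 and 3, whereas for neutrophil markers all vincristine libraries lie above 1.2 and vehicle replicate 2 is lowest.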

How the data were processed

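The authors deposited unnormalized read counts for each gene symbol and used STAR, SAMtools and HTSeq with mm10 (GRCm38), per the submitters' processing notes. The sources used here give no versions, annotation or strand setting. The libraries were stranded total RNA, read as single-end 75-nucleotide runs, per the labels' protocols and design. The tables tally 31.1% to 40.5% of alignments as not unique, so near-identical genes can lose reads. The table names give 10 µg per vincristine sample where the labels give the cumulative dose.

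Here edgeR 4.0.16 in R 4.3.3 (filterByExpr, minimum count 10; TMM; robust estimateDisp and glmQLFit; glmQLFTest, two-sided) was fitted to all 6 libraries with treatment as the only term, leaving 4 residual degrees of freedom and a common biological coefficient of variation of 0.193. P-values were adjusted by Benjamini-Hochberg over all 16706 tested genes, with a threshold of 0.05. The SE is the log2 fold change over the square root of F. Alternatives were DESeq2 1.42.0, limma 3.58.1 (voom with sample quality weights), edgeR's newer dispersion method, other scalings and filters, the replicate number as a block and leaving out each library; DESeq2 without each library was added after seeing the data. On counts simulated for vincristine against vehicle (16706 genes), edgeR recovered 5, 27, 45 and 49 of 50 genes changed 1.5-, 2-, 4- and 8-fold. It made 6 false calls among the unchanged genes. DESeq2 recovered 11, 37, 49 and 50 and made 38 false calls. In the simulation DESeq2 thus found more changed genes and made more false calls. How well the simulated counts stand for these libraries was not tested. In the real data edgeR did not call Rsad2 and Oas3, with fold changes of 4.06 and 4.18. The simulation therefore does not rank the tools on these data, and calls that only DESeq2 made are read with caution.

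Groups and replicate numbers come from the sample titles. Members and lists were chosen with earlier results of these data known. Named with values per library are members at an unadjusted p under 0.05, 15 listed members whatever their values, and the pair with the lowest log2 fold changes. From the pathway lists, genes passing by edgeR or DESeq2 and listed genes are named, 1 of which is not reported here; Ifit3, Oasl2, Trim25, Cmpk2 and any gene outside these rules were added after their values were seen. Gene positions, exon lengths and shared 75-base stretches come from GENCODE M21, and promoter sequences from RefSeq (GRCm38.p6). Replicates were checked not to be copies of each other. All p-values measure the spread between pools.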

Additional observations from a re-analysis of the deposited data

How the results depend on the processing

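Over all genes the counts of higher and lower calls (49 and 11) were 487 and 82 by DESeq2, 398 and 76 by limma voom with sample quality weights, and 230 and 31 with the replicate number as a block; without a filter 83 were higher. Leaving out single libraries gave 0 to 303 higher and 0 to 43 lower. Interferon-stimulated genes called higher (0 by edgeR) numbered 4 by DESeq2, 2 by voom, 2 with the replicate block and 0 to 2 without single libraries. The pair called by voom, with the block and without vincristine replicate 1 was Rsad2 and Oas3 each time. DESeq2 without single libraries called 3 to 6, with Rsad2, Oas3 and Isg15 among them each time. Those fits called 212 to 638 of all genes in either direction. They share most of their libraries, so the recurrence is not repeated evidence. For the other pathway genes (1 called higher) the counts were 5 by DESeq2, 4 by voom, 4 with the block and 0 to 2 without single libraries.

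The members' median log2 fold change (0.43) ranged from 0.24 to 0.78 without single libraries and was 0.14 with quality weights, which gave vincristine replicate 1 a weight of 0.194. With those weights the log2 fold changes of Ifit1, Stat2, Ifih1, Ddx58 and Bst2 were -0.28, -0.054, -0.029, -0.10 and -0.10, and 27 of 38 members were positive. Without single libraries Ifit1 ranged from -0.34 to 0.88, Stat2 from -0.13 to 0.29 and Ifit2 from -0.34 to 0.14. None of these genes passed in any of those fits, and the cause was not tested. Same-numbered libraries of the groups had correlations of deviations of 0.41, 0.23 and -0.09, so the numbers were not taken as pairs, and vehicle replicate 2 correlated best with vincristine replicate 3 (0.46). Depth limits Oas1g most, with 12 reads in vehicle replicate 1.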

Other observations

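The immunity-related GTPases, which act on pathogen-holding vacuoles and answer to type II interferon, overlapped between the groups: Igtp was at 24.8, 40.8 and 22.2 CPM in vehicle pools and 49.2, 31.0 and 42.4 CPM in vincristine. Irgm1, Irgm2 and Iigp1 had log2 fold changes of 0.54, 0.36 and 0.23 (edgeR adjusted p = 0.548, 0.659 and 0.866). Vehicle replicate 2 was the highest vehicle library in all 4. The genes in this section were chosen after their values were seen, other than Cxcl10.

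Of the chemokine genes of the CXCR3 receptor, none passed by edgeR. Cxcl9 was at 3.36, 4.74 and 1.6 CPM in vehicle pools and 15.6, 5.85 and 7.25 CPM in vincristine (log2 1.55 ± 0.49, edgeR adjusted p = 0.309). Cxcl10 was at 2.69, 5.0 and 2.65 CPM in vehicle pools and 9.83, 4.07 and 19.6 CPM in vincristine (log2 1.70 ± 0.56, edgeR adjusted p = 0.326), with its highest value in vincristine replicate 3. Cxcl11 was at 1.74, 2.03 and 1.40 CPM in vehicle pools and 1.78, 1.31 and 1.19 CPM in vincristine (log2 -0.29 ± 0.27, edgeR adjusted p = 0.715).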
